A study of Mus musculus with 6 samples.

Results

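Oligodendrocyte precursors and committed precursors of hippocampal CA1 were described from Drop-seq libraries of 6 mice. The members were chosen by these UMI counts themselves: a barcode was a member when 2 or more of the 6 marker genes Pdgfra, Cspg4, Neu4, Gpr17, C1ql1 and Bmp4 were detected and none of Mog, Opalin, Gad1 and Gad2 was. A UMI is a unique molecular identifier and stands for 1 captured transcript. Of 6000 deposited barcodes, 2096 passed the limits of more than 300 and at most 8000 detected genes and at most 40% mitochondrial UMIs, and 66 of these were members. The exclusion genes removed 9 of 75 barcodes with at least 2 marker genes, namely 7 with Mog or Opalin and 4 with Gad1 or Gad2.

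All mice were male C57Bl6 wild types at postnatal day 28, and CA1 was dissociated with papain 6 h after 1 injection. Mice 1, 3 and 5 received placebo, and mice 2, 4 and 6 received 5000 IU/kg recombinant human erythropoietin (EPO). The labels add D1 for mice 1, 2 and 3 and D2 for mice 4, 5 and 6, without saying what D stands for. Each mouse gave 1 library, so the spread between libraries holds both animal and preparation.

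Oligodendrocyte precursors are the dividing glia that carry the PDGF receptor alpha and the NG2 proteoglycan and give rise to myelinating cells throughout life. On commitment they leave the cell cycle, lose these receptors, pass through a stage that carries the G protein-coupled receptor GPR17, and then build myelin proteins. In the hippocampus they lie scattered among neurons, from which they receive glutamatergic and GABAergic input.

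The marker genes fixed the membership, so their values are a description. Pdgfra, which encodes the receptor for platelet-derived growth factor, had 176 UMIs in 48 of the 66 members. Cspg4, the gene of NG2, had 84 UMIs in 42 members, and Neu4, a sialidase gene, had 76 UMIs in 39. Gpr17 had 140 UMIs in 39 members, C1ql1, which encodes a secreted C1q-like protein, had 35 UMIs in 20, and Bmp4, a ligand of the BMP family, had 39 UMIs in 14. Most members rested on 2 or 3 of the marker genes, since 23 members held 2 of them, 22 held 3, 15 held 4 and 6 held 5. In GENCODE vM21 (GRCm38) these protein-coding genes lie at chr5:75152292-75198215 for Pdgfra, chr9:56865033-56899870 for Cspg4, chr1:94020451-94028334 for Neu4, chr11:102939264-102946688 for C1ql1 and chr14:46383520-46390669 for Bmp4.

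Outside the members, the marker genes were rare and not evenly spread. Pdgfra had UMIs in 21 of 2030 other passing barcodes, Cspg4 in 66, Neu4 in 12, C1ql1 in 10 and Bmp4 in 13. Gpr17 was found in 56 others, of which 30 were oligodendrocyte-like, that is, barcodes with at least 2 of the mature genes Mog, Opalin, Mag, Ermn and Mal. Among barcodes without the 4 exclusion genes, 100 stood just under the rule with exactly 1 marker gene, 55 of them through Cspg4. These 100 held Rgs5, a gene of pericytes, which also carry NG2, at 2933 CPM (UMIs scaled to a total of 1000000), and Olig1 at 72.5 CPM. The 23 members with exactly 2 marker genes held no UMI of Rgs5 and Olig1 at 598 CPM.

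**Figure D1:**
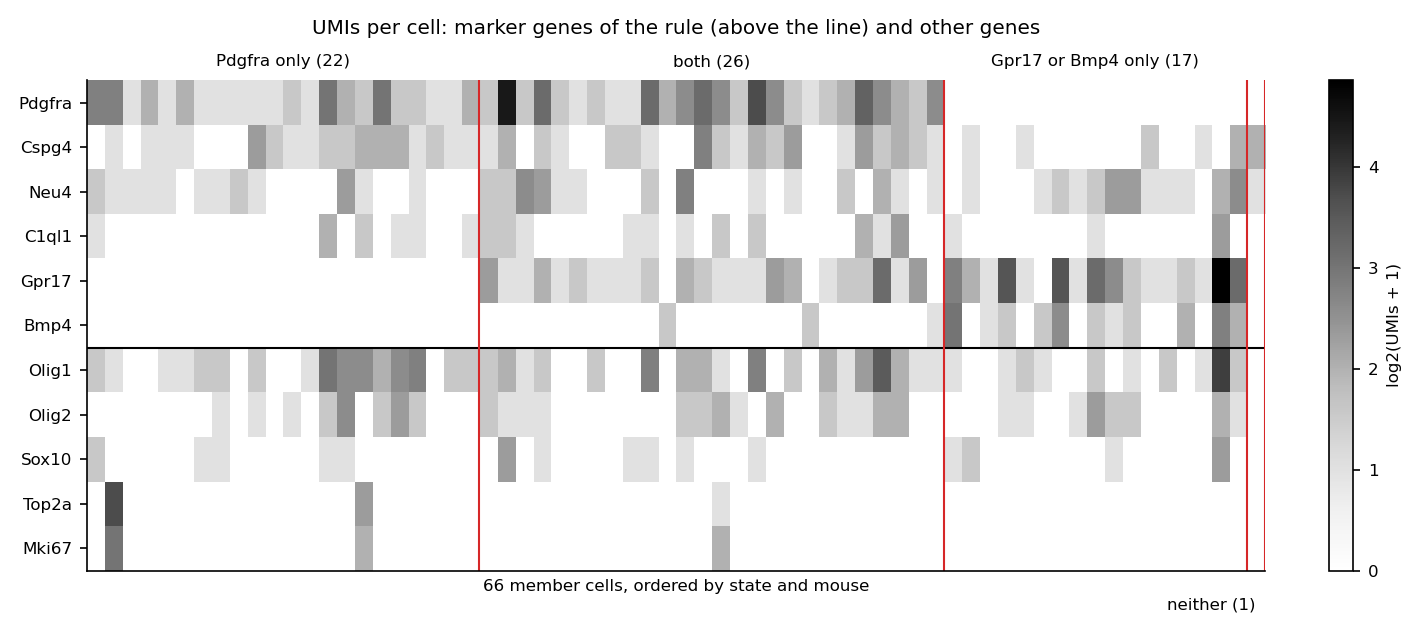
Each column is 1 of the 66 member cells, ordered by state and mouse, and each row a gene, with shading for log2(UMIs + 1). The black line parts the rule's marker genes from the other genes and red lines part the states. Bmp4, but for 3 cells, sits in the cells without Pdgfra, and the 3 cells with Top2a and Mki67 all hold Pdgfra.

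Members numbered 13, 4 and 10 in placebo mice 1, 3 and 5 and 16, 14 and 9 in EPO mice 2, 4 and 6. They held 129282 of 8226772 passing UMIs, with a median of 1343 UMIs (range 414 to 9417) and 817 genes per cell, against 1984 UMIs in the other passing barcodes. Summed per mouse, members held 11358 to 41512 UMIs. Placebo mouse 3 gave the fewest passing barcodes, 114 against 319 to 483 elsewhere. Barcode sequences shared by libraries numbered 67, and no member carried one. Of these, 43 passed the limits in both placebo mouse 1 and EPO mouse 4, and their paired profiles correlated at a median r of 0.702 (lowest 0.526), against 0.305 with the next pair. All 43 had more UMIs in placebo mouse 1. Leaving out shared barcodes ended the calls of Gpr37l1 against other barcodes, of Olig1, Sirt2 and Gria1 against oligodendrocyte-like and of Grin2b against astrocyte-like barcodes, with the directions kept.

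The label was checked against transcription factor genes that the rule did not use. Olig1, Olig2 or Sox10, which specify the oligodendrocyte lineage, had a UMI in 51 of 66 members (77.3%). The share was 16.7% in the other passing barcodes, 60.9% in oligodendrocyte-like and 13.6% in astrocyte-like barcodes, the last being barcodes with at least 2 of Aqp4, Gja1, Gjb6, Slc1a3, Ntsr2 and Slc7a10. These groups differ in depth, with medians of 1343, 1984, 4681 and 1367 UMIs. After each cell was thinned to 500 UMIs, which left out 2 members, 40 others and 3 astrocyte-like barcodes, the shares were 51.3%, 6.50%, 26.5% and 3.99%.

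Markers of other cell types were present at low levels, and some defining ones stood at 0. At 0 in the members were 5 of 7 pericyte genes (Rgs5, Kcnj8, Abcc9, Higd1b and Notch3), 3 of 8 microglial genes (P2ry12, Tmem119 and C1qc), 2 of 7 endothelial genes (Cldn5 and Pecam1), 5 of 8 GABAergic genes (2 of them excluded by the rule) and 1 of 9 astrocyte genes (Gfap). The other genes of these lists had UMIs in members, as did all 9 neuron and all 7 fibroblast genes. The microglial genes summed to 108 CPM in members and 779 CPM in other passing barcodes, and the endothelial genes to 224 and 750 CPM. The 9 neuron genes summed to 642 CPM in members and to 5943 CPM in the other passing barcodes, and 5 members held at least 3 of them. The 9 astrocyte genes summed to 851 CPM in members, 787 CPM in oligodendrocyte-like and 16201 CPM in astrocyte-like barcodes. Of the members, 7 held at least 2 of the genes that define astrocyte-like barcodes. Another count, of members with at least 2 of the genes that define oligodendrocyte-like barcodes, was 3. The 2 comparators shared 20 barcodes.

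There were 2 members with at least 3 fibroblast genes, which went against the label. The cell in EPO mouse 4, the deepest member, held all 7 fibroblast genes of the list (135 UMIs of them) and 645 UMIs of Ptgds, and the cell in placebo mouse 5 held 4 fibroblast genes in 27 UMIs. Both held Pdgfra and Bmp4, neither held Olig1, Olig2 or Sox10, and the other 64 members together held 2 fibroblast UMIs. Without both cells, Vtn and Pdgfrb, the pericyte genes found in members, also fell to 0 UMIs. Leaving out both cells moved the calls described below from 371 to 404 against other barcodes, from 312 to 325 against oligodendrocyte-like and from 262 to 284 against astrocyte-like barcodes. Another member that sat poorly with the label was the cell of placebo mouse 3 with 5318 UMIs. It held 8 of the 9 neuron genes and 1 UMI each of Pdgfra, Cspg4 and Olig1. It made up 5318 of the 11583 member UMIs of that mouse.

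Against all other passing barcodes, the members were compared over summed UMIs within each of the 6 mice, with the mouse as a block (edgeR quasi-likelihood test, Benjamini-Hochberg adjustment). Of 1165 genes tested, 140 were higher (12%) and 231 lower (19.8%) in members, 371 in all (31.8%), with a median log2 fold change over tested genes of −0.12. Scaling by library totals moved this median to 0.01. The filter keeps a gene that is high in either arm, so the genes of a list that were tested are not the whole list. Counts over the tested genes of a list, in this and later comparisons of cell groups, are therefore descriptions. For some lists, counts from a fit without the filter stand beside them.

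The precursor genes led this comparison. Vcan, which encodes the matrix proteoglycan versican, stood at 1727, 1640 and 1673 CPM in members of placebo mice 1, 3 and 5 and at 1870, 1084 and 3158 CPM in those of EPO mice 2, 4 and 6. The other passing barcodes held 10.9 to 33.2 CPM, so the arms were far apart in every mouse. The log2 fold change of Vcan was 6.12 (SE 0.35, edgeR adjusted p = 3.86e-10). Cacng4, an auxiliary subunit of AMPA receptors, stood at 1540, 2504 and 1497 CPM in placebo and 1714, 1301 and 1072 CPM in EPO members, against 6.94 to 31.4 CPM in other barcodes. Its log2 fold change was 6.32 (SE 0.36, edgeR adjusted p = 3.86e-10). Matn4, which encodes the matrix protein matrilin-4, had a log2 fold change of 6.11 (SE 0.73) from 43 UMIs in members. Of 25 precursor genes 24 were in the table, 14 were tested, and these 14 were higher, with a median log2 fold change of 2.92. Without the filter, 19 of 24 were called higher, where 1.23% of 19861 genes were, and none lower, where 7.50% were.

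Lineage transcription factors followed. Olig2 held 187, 604 and 528 CPM in placebo and 273, 578 and 620 CPM in EPO members, against 22.4 to 50.7 CPM in other barcodes, a log2 fold change of 3.59 (SE 0.41). Olig1 rose by 2.79 (SE 0.34) and Sox6, which keeps precursors undifferentiated, by 5.18 (SE 0.53) on the log2 scale. Nfia (1.00, SE 0.49) and Zeb2 (−0.13, SE 0.30) did not pass the test, and the other 9 of the 14 factors were below the filter. Without the filter Sox10, Sox8, Nkx2-2, Tcf7l2 and Zfp488 were among those also called higher, and Nkx6-2, with 0 UMIs in members and 42.9 CPM elsewhere, lower.

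Genes of committed precursors and newly formed oligodendrocytes were higher in the same sums. Bcas1, which marks oligodendrocytes at the onset of myelination, held 1867, 86.3 and 2377 CPM in placebo and 779, 1397 and 2312 CPM in EPO members, against 30.6 to 127 CPM in other barcodes. Placebo mouse 3, in which 3 of 4 members held Pdgfra and neither Gpr17 nor Bmp4, was the low value, and it was the only mouse without a UMI of Enpp6. Of these 3 cells, 1 held 8 neuron genes and 5318 of the 11583 member UMIs of this mouse. The log2 fold changes were 4.21 for Bcas1, 3.75 for the IP3 receptor gene Itpr2, 3.68 for the choline phosphodiesterase gene Enpp6, 3.48 for the tetraspanin gene Cd9, 3.22 for the Src-family kinase gene Fyn and 2.61 for the deacetylase gene Sirt2 (SE 0.32 to 0.52). In all, 9 of 11 tested genes of this list were higher and none lower, and 10 of 19 were called higher without the filter, while Gpr37 was called lower.

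Myelin genes split. Mal, a proteolipid of compact myelin, held 140, 86.3 and 0 CPM in placebo and 0, 72.3 and 56.4 CPM in EPO members, against 648 to 1939 CPM in other barcodes, and fell by 4.55 (SE 0.44) on the log2 scale. Mobp, Ermn, Car2, Qdpr, Cldn11, Mag and Trf were lower as well, which made 8 of 14 tested genes lower and none higher. Mbp, the gene of myelin basic protein (0.08, SE 0.39), and Cnp, which encodes a myelin phosphodiesterase (0.04, SE 0.35), did not differ beyond their error. Without the 2 cells with fibroblast genes, 10 of the 14 were called lower, Apod among them, and 127 of the 131 UMIs of Apod in members lay in these 2 cells.

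Among genes outside the lists, Marcks, a membrane substrate of protein kinase C, stood at 2540 ± 465 CPM in members and 347 ± 63.2 CPM elsewhere (mean ± SD, n = 6 mice). Sema3d, a secreted semaphorin gene, rose by 4.65, and Ppfibp1, a liprin gene, by 3.34 on the log2 scale. The hemoglobin genes Hba-a1, Hba-a2, Hbb-bs and Hbb-bt and the neuronal genes Chn1, Nrgn and Calm2 were among the 10 with the smallest p of those lower in every mouse. All 7 tested neuron genes, the 3 tested astrocyte genes and the 1 tested microglial gene were lower.

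Receptor genes were few enough to name. Gria4, an AMPA receptor subunit gene, held 420, 0 and 352 CPM in placebo and 351, 265 and 169 CPM in EPO members, against 67.4 to 101 CPM elsewhere, and rose by 1.48 (SE 0.44, adjusted p = 0.015). That call was lost in limma and without the filter. Gria2 (−0.16, SE 0.27) and Gria3 (−0.15, SE 0.32) did not differ beyond their error, although Gria2 was called lower without the filter. Gria1, Grin2b and Grm5 were lower, by 1.41 to 2.69 on the log2 scale. With more than 1000 genes per cell these 3 calls were lost, and that of Grm5 also in limma and without mouse 1, 2, 5 or 6. Ntrk2, the receptor for brain-derived neurotrophic factor, was the only growth factor gene of 16 above the filter (−0.91, SE 0.35, adjusted p = 0.056).

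The astrocyte-like and oligodendrocyte-like barcodes showed which of these genes members shared with each. Against oligodendrocyte-like barcodes, 129 of 1157 genes were higher (11.1%) and 183 lower (15.8%), 27.0% in all, with a median of −0.07 over all tested genes. All 13 tested precursor genes were higher, with a median log2 fold change of 4.14, and without the filter 20 of 24 were higher and none lower (1.15% and 6.04% of all genes). Cacng4 rose by 6.99 (SE 0.46), Vcan by 6.53 (SE 0.57) and Ptprz1, a receptor phosphatase gene, by 5.26 (SE 0.45). All 11 tested myelin genes were lower, led by Mobp (−5.44, SE 0.55), Car2 (−4.87, SE 0.54) and Trf (−3.64, SE 0.52), with Mbp at −1.79. Genes of committed precursors were higher for 9 of 12, of which Itpr2 moved most (4.37, SE 0.41). Precursor, myelin and committed precursor genes could pass the filter through the arm where they are high, so these counts of tested genes are descriptions. Olig2 was higher in 6 of 6 mice (1.89, SE 0.45), and Olig1 in 5 of 6 mice (1.04, SE 0.39, adjusted p = 0.048), a call lost in 12 of the alternative settings. The neuron genes summed to 4980 CPM in oligodendrocyte-like barcodes, and 6 of 6 tested were lower in members.

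Against astrocyte-like barcodes, 97 of 1065 genes were higher (9.11%) and 165 lower (15.5%), 24.6% in all, with a median of −0.06. Scaling by library totals moved the median to 0.22 and the split to 147 higher and 118 lower. The precursor list divided here. Cacng4 (6.14), Vcan (5.99), Sulf2 (5.78), Matn4 (5.08), Tnr (4.72) and Epn2 (2.89) were higher in members. Ptprz1 (0.72, SE 0.34), Serpine2 (0.56, SE 0.31), Cspg5 (0.30, SE 0.32), Ednrb (0.02, SE 0.34), Bcan (−0.18, SE 0.34), Scrg1 (0.75, SE 0.43) and Luzp2 (0.53, SE 0.37) did not pass the test, although Ptprz1 and Serpine2 did under library totals. Gpr37l1, an orphan receptor gene, was lower (−1.63, SE 0.37). Without the filter 11 of 24 precursor genes were higher and 2 lower, where 0.949% and 4.73% of all genes were. Ptprz1 stood at 1525 ± 634 CPM in members and 745 ± 233 CPM in astrocyte-like barcodes, and was higher in members of 6 of 6 mice.

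Of the committed precursor and myelin lists, 10 of 11 and 4 of 5 tested genes were above the astrocyte-like level. Among them were Bcas1 (6.61, SE 0.46), Enpp6 (6.27, SE 0.66) and Mbp (2.92, SE 0.46). Genes of these lists could pass the filter through the members alone, so the counts are descriptions and lend the label no support. Apod, another of the 4 myelin genes, lay almost wholly in the cells with fibroblast genes and was not called without them. Lower in members were Id2, Id3 and Id4, which encode inhibitors of basic helix-loop-helix factors downstream of BMP (−1.92, −2.50 and −5.00), the FGF receptor gene Fgfr3 (−5.41), Ntrk2 (−2.38), and the metallothionein genes Mt1 (−4.79) and Mt2 (−6.37). Id4 held 27.7 ± 43.0 CPM in members and 688 ± 307 CPM in astrocyte-like barcodes (mean ± SD, n = 6).

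**Figure D2:**
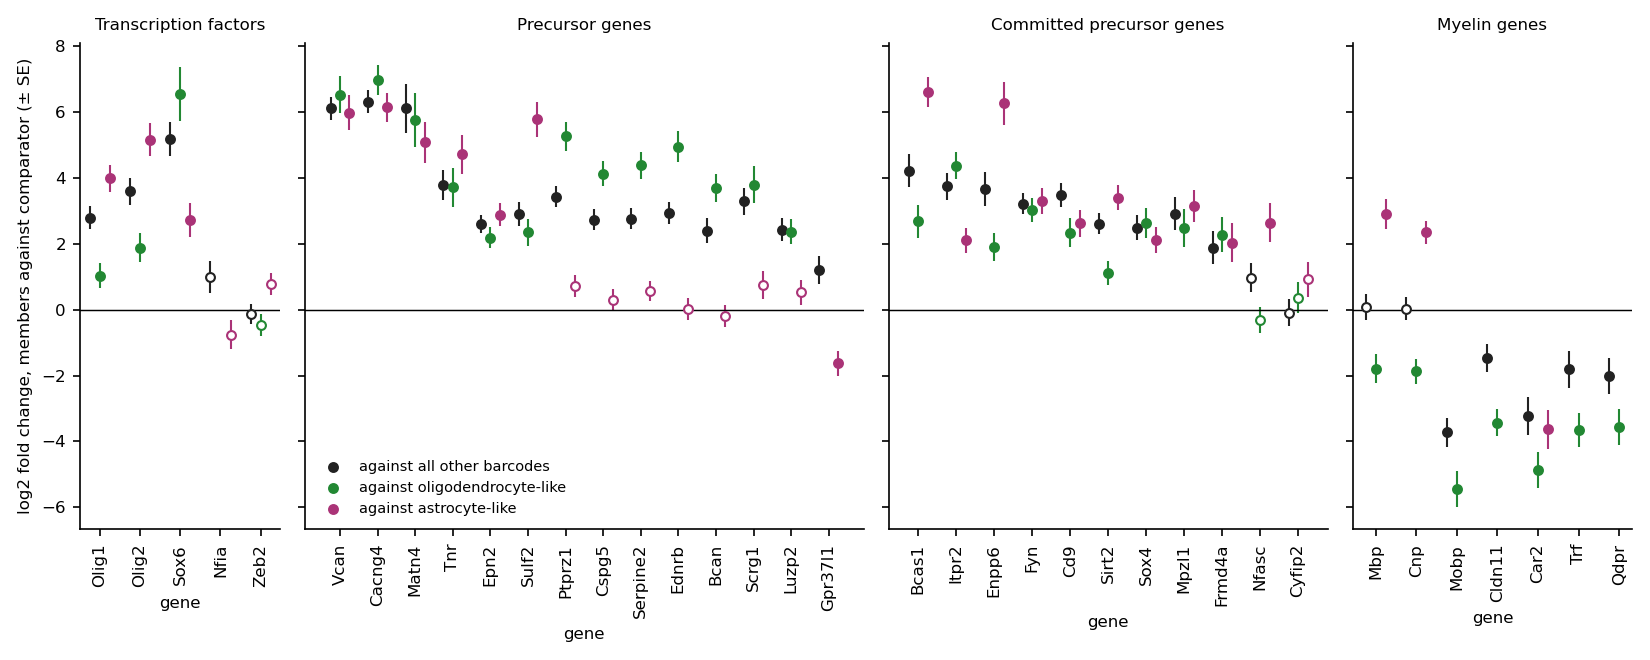
Log2 fold change of members over each comparator (vertical axis, bars ± SE), by gene, for 3 comparisons over 6 mice. Filled points passed an adjusted p of 0.05 and open points did not. Ptprz1, Cspg5, Serpine2, Ednrb and Bcan lie lowest against astrocyte-like barcodes, and Mbp and Cnp change side between the comparators.

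The members were then split by the receptor genes. Pdgfra without Gpr17 or Bmp4 was found in 22 cells, both kinds in 26, Gpr17 or Bmp4 without Pdgfra in 17, and neither in 1. Median depths were 1107, 1485 and 2470 UMIs in that order, so a missing transcript weighs differently in each. Bmp4 was found in 10 of 16 cells with Gpr17 and without Pdgfra, and in 0 of 23 cells with both Gpr17 and Pdgfra, which allows up to 13.0% of such cells to hold a UMI and sets no limit on how many express the gene. Of the 3 cells with Pdgfra and Bmp4, 2 were the cells with fibroblast genes. These counts use the genes of the rule and were given no test.

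Placebo mouse 1 and EPO mouse 4 had at least 3 cells of each end state, with 6 against 6 and 4 against 4 cells and 7737 to 11225 UMIs per sum. With the mouse as a block, 24 of 460 genes were higher (5.22%) and 11 lower (2.39%), 7.61% in all, in cells with Gpr17 or Bmp4 only than in cells with Pdgfra only. The median of all tested genes was −0.06. The test rests on 2 mice of different treatment, and DESeq2 called 5 genes, all higher, among them Mbp, Fyn, Sirt2 and Bcas1, which edgeR called as well. No fit without either mouse could be made.

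Myelin and early differentiation genes were higher in the cells without Pdgfra. Mbp stood at 4786 CPM in placebo mouse 1 and 5247 CPM in EPO mouse 4 in these cells, against 258 and 356 CPM in the cells with Pdgfra only, a log2 fold change of 3.85 (SE 0.59, edgeR adjusted p = 4.86e-08). Cnp (4.86, SE 0.92), Mag (3.82, SE 1.23), Fyn (4.58, SE 0.75), Sirt2 (4.01, SE 0.71), Bcas1 (2.67, SE 0.55), Enpp6 (4.04, SE 1.17) and Nfasc (3.96, SE 1.18) were higher too. Of the lists, 7 of 9 tested committed precursor genes and 4 of 4 tested myelin genes were higher, and Itpr2 (1.35, SE 0.70) and Sox4 (0.85, SE 0.95) did not pass. Without the filter, 5 of 15 and 3 of 12 were called higher, where 0.200% of all genes were.

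Genes of the immature state were lower in the cells without Pdgfra. Ptn, which encodes the growth factor pleiotrophin, stood at 92.0 and 90.5 CPM in placebo mouse 1 and EPO mouse 4, against 1809 and 1782 CPM, a log2 fold change of −4.22 (SE 0.82). Cspg5, a proteoglycan gene, had 0 UMIs against 28, and Serpine2 (−3.56, SE 0.78), Ptprz1 (−2.73, SE 0.62), Cacng4 (−1.81, SE 0.51) and the endothelin receptor gene Ednrb (−3.38, SE 1.08) were lower. The cyclin D1 gene Ccnd1 was lower as well (−2.65, SE 0.67), with 368 and 181 CPM against 1163 and 2138 CPM. Of 10 tested precursor genes 5 were lower and none higher, and without the filter 3 of 22 were lower, where 0.0533% of all genes were. DESeq2 called no gene lower. None of these 7 genes kept its call when cells with both kinds counted as committed, where Ptn turned to 0.34. Vcan did not follow them (1.00, SE 0.53, adjusted p = 0.296), nor did Olig2 (0.27, SE 0.94), Sox6 (0.40, SE 0.98) and Olig1 (−1.74, SE 0.72, adjusted p = 0.125).

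The other 4 mice and the cells with both kinds of receptor gene took no part in that test. Over 7 and 12 cells of the other mice, pooled, 24 of 24 higher genes had the same direction, against 70.3% of the 222 tested genes on that side, and 8 of 11 lower genes did, against 45.4% of 238. The exceptions were Top2a, Dek and Smc3. Of the 15590 UMIs in these 12 Pdgfra-only cells, 5318 came from the cell of placebo mouse 3 with 8 neuron genes. The 24 cells with both kinds, without the fibroblast-gene cells, lay nearer in CPM to the Pdgfra-only level for 32 of the 35 genes. Over all 460 genes the share was 59.8%. The 35 genes were picked for a gap between the end states in mice 1 and 4, whose cells are part of both levels. The 59.8% is therefore no like baseline, and the count of 32 is a description. In these 24 cells Mbp stood at 284 CPM, Fyn at 308 CPM and Enpp6 at 0, while Cspg5 (2249 CPM), Ptn (2320 CPM) and Serpine2 (2415 CPM) were above the Pdgfra-only cells (1100, 1679 and 1476 CPM). Levels of the cells with both kinds lay between the end states for 18 of the 35 genes and outside them for the others. The plot shows the 3 levels by gene.

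**Figure D3:**
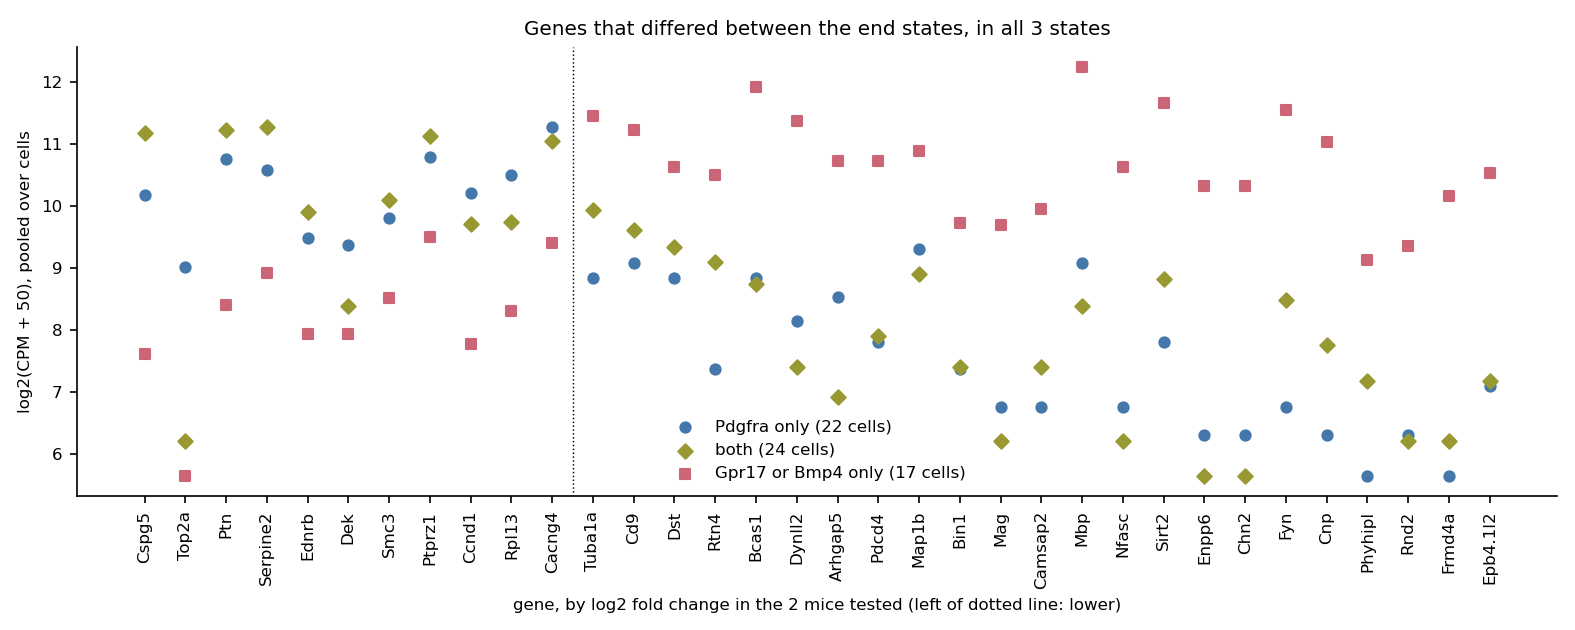
Levels of 34 of the called genes, as log2(CPM + 50) pooled over the cells of a state, for cells with Pdgfra only (22), with both kinds (24) and with Gpr17 or Bmp4 only (17). Genes left of the dotted line were lower in cells without Pdgfra. On the linear CPM scale, the cells with both kinds lie nearer to the Pdgfra-only cells for 31 of these genes.

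Summed over whole lists, the committed precursor genes stood at 2257 CPM in Pdgfra-only cells, 3409 CPM in cells with both kinds and 20350.2 CPM in cells with Gpr17 or Bmp4 only. The myelin genes stood at 2749.5, 1989 CPM and 33692 CPM and the precursor genes at 13834, 19009 and 7731 CPM in the same order. The neuron genes stood at 1476, 639 and 72.2 CPM, and the part of neuronal RNA in the other differences was not tested beyond a fit without the 5 cells that held at least 3 neuron genes, which shared 25 of the 35 calls.

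UMIs of many cell cycle genes were found together in few members. At least 5 of the 21 cycle genes were found in 3 of 66 members (4.55%), against 1.23% of other passing barcodes, 2.75% of oligodendrocyte-like and 1.60% of astrocyte-like barcodes, shares that depth can move. These 3 cells came from placebo mouse 1 and, for 2 of them, EPO mouse 4, and no other member held more than 3 cycle genes. They were the 3 members with Mki67 or Top2a, 2 of them Pdgfra-only and 1 with both kinds, so the lower Top2a of cells without Pdgfra rests on 2 cells. These 2 cells held 1784 of the 7737 Pdgfra-only UMIs of placebo mouse 1 and 4370 of the 11225 of EPO mouse 4. No fit left out both, and their part in the other lower genes was not tested. Ccnd1 was broader, with 79 UMIs in 28 members. Against all other barcodes Ccnd1 rose by 2.61 on the log2 scale (SE 0.36, edgeR adjusted p = 2.23e-05).

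Whether 6 h of EPO changed the number of these cells was asked over mice. Members made up 3.69%, 3.51% and 2.23% of passing barcodes in placebo mice 1, 3 and 5 and 5.02%, 2.90% and 2.37% in EPO mice 2, 4 and 6. The groups overlapped, with 3.14% ± 0.80 in placebo and 3.43% ± 1.40 in EPO mice (SD, n = 3 each). The difference of 0.287 percentage points did not pass a two-sided exact permutation test (p = 0.8, adjusted 0.8 over both share tests, smallest possible 0.1). The direction turned with more than 1000 genes per cell (−0.788), without EPO mouse 2 (−0.506) and without placebo mouse 5 (−0.171). Within D1 the difference was 1.41 and within D2 it was 0.409 percentage points. With the D number as a block it was 0.912 percentage points (exact permutation p = 0.111, the smallest possible in that setting). Fewer cells and less RNA per cell cannot be told apart where a share rests on detected transcripts, and after thinning to 500 UMIs the difference was 0.484 percentage points (exact p = 0.4).

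Members with Gpr17 or Bmp4 made up 53.8%, 25% and 90.0% of members in placebo mice 1, 3 and 5 and 62.5%, 64.3% and 77.8% in EPO mice 2, 4 and 6. This share counts the 26 cells that also held Pdgfra. The placebo values lay on both sides of the EPO values, and the share of mouse 3 rested on 1 of 4 cells. The difference of 11.9 percentage points did not pass (exact permutation p = 0.7, adjusted 0.8). It was 23.1 percentage points within D1 and −19.0 within D2.

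**Figure D4:**
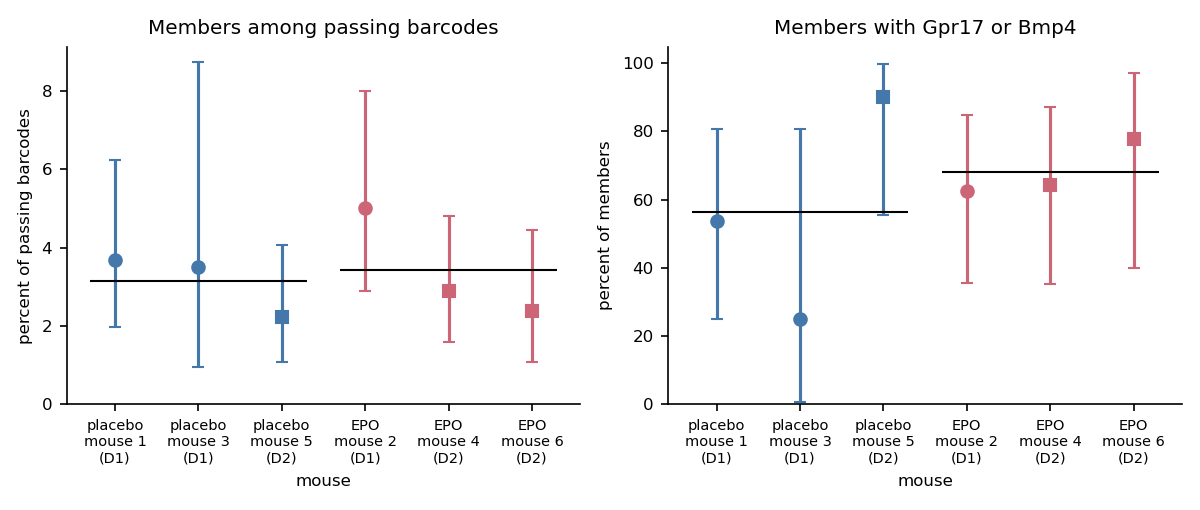
Left, members as percent of passing barcodes; right, members with Gpr17 or Bmp4 as percent of members, each per mouse with 95% exact binomial intervals that cover counting error only. Circles are D1 and squares D2, and lines are group means, 3.14% and 3.43% on the left and 56.3% and 68.2% on the right.

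Across genes, none of 1200 genes tested passed between EPO and placebo members (edgeR, 0.00% called), with 20 genes at an unadjusted p under 0.05, and limma and DESeq2 called 0 genes as well. Groups did not overlap for 90 genes (7.50%). The precursor list held 2 such genes of 18 tested, Matn4 and Tnr. Matn4 stood at 140, 259 and 264 CPM in placebo and 467, 337 and 451 CPM in EPO mice (log2 fold change 1.13, SE 0.63, adjusted p = 0.992), and Tnr had a log2 fold change of 0.98 (SE 0.65). Among committed precursor genes Cyfip2 was such a gene, at 46.7, 86.3 and 88.0 CPM against 351, 265 and 508 CPM (2.44, SE 0.76, unadjusted p = 0.0061), and of the BMP, Notch and Wnt genes Id2 was (−0.81, SE 0.81).

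The median log2 fold change over all genes tested for EPO was 0.13. The median log2 fold change was 0.22 for 8 lineage transcription factors, 0.19 for 18 precursor genes, 0.33 for 12 committed precursor genes and 0.78 for 8 myelin genes. The myelin median fell to 0.50 over 6 genes without the cells with fibroblast genes. Vcan, Cacng4 and Olig2 had log2 fold changes of 0.38 (SE 0.52), −0.22 (SE 0.52) and 0.39 (SE 0.59), and their groups overlapped. Placebo mouse 3 was the lowest mouse for Fyn, Bcas1, Enpp6 and Gria4, and 1 cell with 8 neuron genes held 5318 of its 11583 member UMIs.

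The smallest p belonged to Ptgds, which encodes prostaglandin D synthase. It stood at 0, 173 and 0 CPM in placebo mice 1, 3 and 5 and at 312, 15730.4 and 56.4 CPM in EPO mice 2, 4 and 6 (log2 fold change 6.85, SE 1.81, edgeR adjusted p = 0.992). The groups overlapped, and the cell of EPO mouse 4 with fibroblast genes held 645 UMIs of it. With a filter of 1 UMI or none, Ptgds became the 1 call of this comparison.

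Genes of the EPO receptor pathway were at the edge of detection. Epor had 0 UMIs in 66 members, which allows up to 23.2 CPM by counting error, and 9 UMIs in all passing barcodes. Of the 13 genes of the list 8 had no UMI in members, among them the feedback inhibitors Cish, Socs1, Socs2 and Socs3, while Jak2 had 13 UMIs, Stat3 6, Stat5b 4, Bcl2l1 2 and Pim1 1. No gene of this list passed the filter in the treatment comparison, so a change in them was not detectable at this depth. Of 16 immediate early genes, Jun alone was tested (−0.92, SE 0.83).

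**Figure D5:**
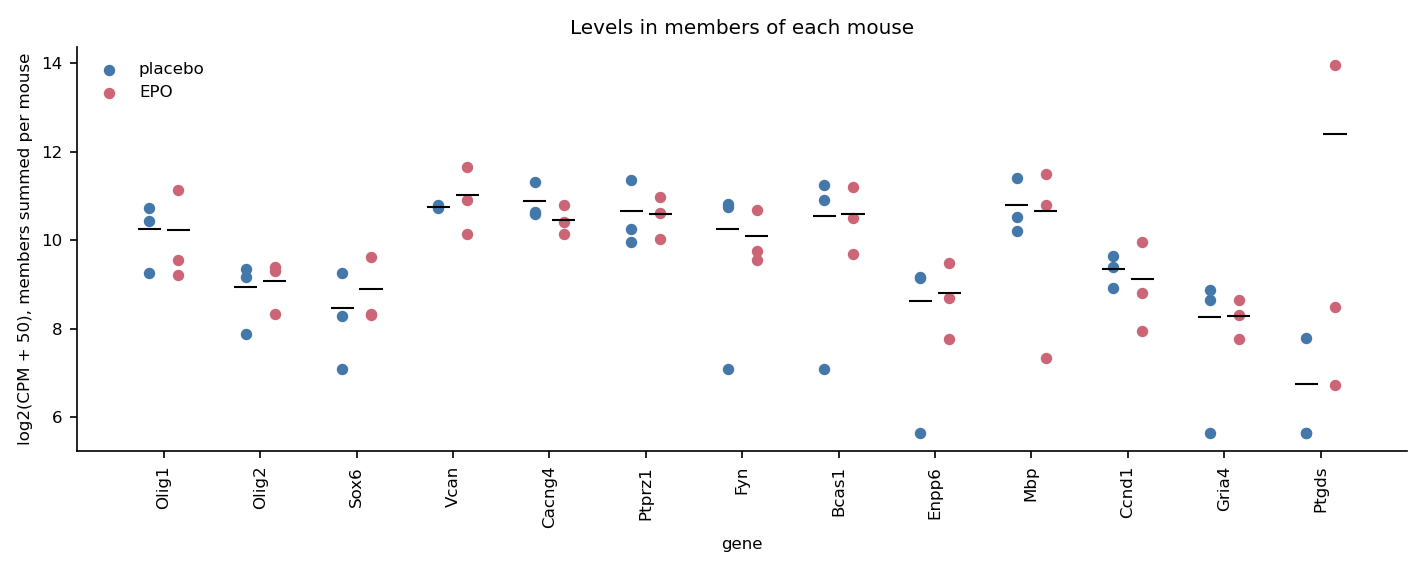
Levels of 13 genes as log2(CPM + 50) in the summed members of each mouse, placebo in blue and EPO in red, with a line at the group mean. For each gene the groups overlap, and the top point of Ptgds is EPO mouse 4 at 15730.4 CPM.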

How the data were processed

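Raw UMI counts were deposited by the authors in 1 table (20234 genes, 1000 barcodes per mouse), with a missing value for a gene without UMIs in a mouse, set here to 0. The submitters' processing notes name bcl2fastq 2.15, STAR 2.4.0 and mm10, and how barcodes were picked is not given in the sources used here. Barcodes with more than 300 genes were used here, where the study's stated filter was more than 1000. UMIs were summed per mouse and tested by edgeR 4.0.16 (quasi-likelihood, trimmed mean of M values, R 4.3.3) with the mouse as a block between cell groups, since both sums come from the same animal. Genes entered at a mean CPM worth 3 UMIs at the median depth of the smaller arm. Genes of the gates were fitted and given no test, and the Benjamini-Hochberg threshold was 0.05. limma 3.58.1 and DESeq2 1.42.0 were alternatives. Shares were compared by exact permutation over mice (scipy 1.17.1), with exact binomial intervals (Clopper-Pearson, 95%). A count of 0 was taken to allow 3 counts, which covers counting error only. No doublet caller was run, and fits without members with 3 or more neuron genes or fibroblast genes stand in its place. The script was tested on simulated counts.

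Named genes were the marker and exclusion genes, members of the lists, Epor and, for each test, the 10 called genes of each direction that led by adjusted p and moved alike in every mouse, or, with no call, the gene of lowest p. The members and gene lists were chosen with earlier results of these data known. Some named genes are not reported here.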

Additional observations from a re-analysis of the deposited data

Results flagged for a closer look

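Among the 3904 barcodes outside the limits on genes and mitochondrial UMIs, which entered no comparison, 16 held UMIs of at least 2 marker genes (0.410%), where a count of 0 would allow up to 0.0768%. Of these, 12 had at most 300 genes and 4 had more than 40% mitochondrial UMIs. Within the limits 75 of 2096 barcodes held at least 2 marker genes before the exclusion genes were applied. A count above that of 0 does not show what these barcodes hold, and they are listed because the comparisons left them aside. No group of 3 mice was large enough to look for a mouse that stands apart.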

How the results depend on the processing

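The difference in member share turned with more than 1000 genes per cell (−0.788 percentage points) and ran from −0.506 to 0.814 with 1 mouse left out. The difference in the share of members with Gpr17 or Bmp4 ran from −3.74 to 28.8. It was −3.74 without placebo mouse 3 and, chosen after seeing the data, over mice with at least 5 members. The exact permutation tests of the shares could not pass with 3 mice a group in any setting, so they say nothing of stability. With filters of 1 UMI, 10 UMIs and none, calls numbered 875, 68 and 1735 against other barcodes, 758, 70 and 1223 against oligodendrocyte-like and 616, 78 and 897 against astrocyte-like barcodes, as fewer or more genes were tested. With more than 1000 genes per cell they numbered 155, 140 and 122, and with 1 mouse left out they ran from 255 to 476, 232 to 337 and 182 to 326. Between the end states 35 calls became 5 in DESeq2, 16 with a filter of 10 UMIs, 19 with none and 22 when cells with both kinds counted as committed, where Ptn turned to 0.34. That last fit took in the cell of EPO mouse 4 with fibroblast genes, and its calls included Ptgds, Apod and Igf2. The cause of these changes was not tested. EPO against placebo gave 1 call with a filter of 1 UMI or none and 0 with any mouse left out. Without the replicate block, that is, without the mouse as a pair, calls numbered 448, 320, 264 and 50, and with the D number as a block the shares differed by 0.912 and 2.05 percentage points and no gene was called. Fits between the end states over more than 1000 genes per cell, at least 3 markers or without 1 mouse were not possible because fewer than 2 mice remained.

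Of the named called genes, 45 of 62, 44 of 59 and 44 of 52 kept their call against the 3 comparators in every setting that tested them. Between the end states 5 of 25 did. A gene under the filter of a setting was not tested there and was not counted as lost. Member sums of 11358 to 41512 UMIs limit the treatment comparison to abundant genes.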
